A study of Mus musculus with 4 samples.

Results

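The genes described here encode RNA polymerase II (Pol II) and the factors that load it onto promoters. They are the protein-coding genes of the mm10 mouse genome whose symbols begin with Polr2 or Gtf2, or with Med or Taf followed directly by a number, and 82 of 21938 annotated protein-coding genes met that rule. The rule uses symbols and no measured value, although the set was chosen with earlier results of these data known. By role they comprise 13 Pol II subunits or associated proteins, 13 general transcription factor subunits, 3 members of the TFII-I family, 30 Mediator subunits, 18 TBP-associated factors (TAFs) of TFIID, its paralogs or the SAGA coactivator, and 5 further TAFs. These last are Taf1a, Taf1b, Taf1c and Taf1d, which serve RNA polymerase I, and Taf15, an RNA-binding protein of the FET family.

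Pol II was profiled by chromatin immunoprecipitation and sequencing (ChIP-seq) in brain endothelial cells (ECs), the cells that line brain vessels, in 2 libraries from old WT Cre mice and 2 from young EC-K4KO mice. WT Cre mice carried the CDH5-CreERT2 driver, a tamoxifen-inducible Cre expressed from an endothelial promoter, with wild-type Klf4. EC-K4KO mice carried the same driver with floxed Klf4, so that this transcription factor was lost from ECs. The comparison sets Klf4 loss at a young age against normal aging, so genotype and age changed together and their effects cannot be told apart.

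Transcription of a protein-coding gene starts when TFIID binds the promoter, TFIIA and TFIIB stabilize it, TFIIF brings Pol II, and TFIIE and TFIIH open the DNA. Mediator bridges this assembly to activators bound elsewhere. The genes for these proteins are used by nearly every cell type, and such housekeeping genes typically start in CpG-rich promoters that lack methylation. A Pol II peak marks polymerase engaged at or near its position, most often paused just downstream of the transcription start site (TSS).

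The libraries differed most in the number of called peaks. Replicates 1 and 2 of old WT Cre, called old 1 and old 2 below, held 78851 and 39674 peaks from 65734178 and 27455452 fragments. The corresponding EC-K4KO libraries, young 1 and young 2, held 35638 peaks from 35227929 fragments and 235591 from 22705175. Values for the 4 libraries are given in this order throughout. The last library had the fewest fragments and the most peaks, so it stands apart. The group differences, and the counts of genes with promoter peaks in 1 group alone, are also given without it. Of 10 endothelial marker genes, 5, 5, 0 and 7 had a promoter peak in the 4 libraries. Cdh5, the gene whose promoter drives the Cre, had one in every library but young 1, and Pecam1 had gene body peaks in each library but a promoter peak in none. Of 5 markers each of neurons, astrocytes, microglia, pericytes and oligodendrocytes, at most 2 had one in any of the first 3 libraries and 3 or 4 in young 2. In young 1 none of the endothelial markers had one, beside 10.6% of all genes. There 1 of 5 markers each of neurons (Slc17a7), astrocytes (Gja1), pericytes (Abcc9) and oligodendrocytes (Olig2) did, and 0 of 5 of microglia. Gene body peaks in young 1 were at 6 of 9 endothelial markers with a gene body, beside 27.9% of all genes. Among neurons, astrocytes, microglia, pericytes and oligodendrocytes they were at 3, 2, 2, 1 and 0 of 5 markers. The part of these other cells in the results was not tested. Klf4 had a promoter peak in young 1 and young 2 and none in old 1 and old 2, and a gene body peak in old 1 and young 2. These peaks do not show which part of the gene was deleted, so they do not check the knockout label.

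Promoter sequences of some of the genes named below are shown first. Each covers 200 bases before the RefSeq TSS and 30 from the TSS on, in the direction of transcription, on GRCm38.p6, the assembly of mm10. Capitals mark matches to short motifs searched on both strands: the GC box GGGCGGG bound by Sp and KLF factors, the ETS core CCGGAAG, the YY1 motif AAGATGGC, the CCAAT box and the TATA box TATAAA, with positions counted from the TSS base as 0. Polr2a (chr11:69758604-69758833, minus strand) encodes the largest, catalytic subunit, Med13 (chr11:86357567-86357796, minus) and Gtf2a1 (chr12:91590458-91590687, minus) encode a Mediator kinase module subunit and the large TFIIA subunit, and Taf12 (chr4:132274175-132274404, plus) a histone-fold subunit of TFIID and SAGA. These 4 are among 6 of the 82 genes with promoter peaks in both young libraries and in neither old one, a pattern that 3.09% of all genes had. None of the 4 kept it at q of at most 1e-05. Taf5 (chr19:47067548-47067777, plus), a WD-repeat scaffold of TFIID, had the reverse pattern, as did 0.784% of all genes. Gtf2b (chr3:142765047-142765276, plus), encoding TFIIB, and Taf3 (chr2:10048580-10048809, minus), the TFIID subunit that reads trimethylated histone H3 lysine 4, had the highest promoter peaks by rank among genes called in at least 3 libraries.
Polr2a: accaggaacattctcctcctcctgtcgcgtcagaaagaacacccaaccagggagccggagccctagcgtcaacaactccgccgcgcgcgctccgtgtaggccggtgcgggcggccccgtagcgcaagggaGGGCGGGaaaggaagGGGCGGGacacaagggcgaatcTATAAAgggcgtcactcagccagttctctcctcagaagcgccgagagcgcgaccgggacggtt
Med13: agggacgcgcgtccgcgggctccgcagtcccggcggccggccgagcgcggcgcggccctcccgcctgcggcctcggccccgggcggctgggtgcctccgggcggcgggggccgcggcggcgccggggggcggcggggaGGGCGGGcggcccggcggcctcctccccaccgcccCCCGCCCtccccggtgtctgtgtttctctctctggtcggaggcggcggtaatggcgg
Gtf2a1: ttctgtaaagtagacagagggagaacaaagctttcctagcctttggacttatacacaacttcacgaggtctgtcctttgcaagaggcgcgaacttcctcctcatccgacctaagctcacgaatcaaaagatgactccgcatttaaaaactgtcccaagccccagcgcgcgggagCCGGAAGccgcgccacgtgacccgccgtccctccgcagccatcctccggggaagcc
Taf12: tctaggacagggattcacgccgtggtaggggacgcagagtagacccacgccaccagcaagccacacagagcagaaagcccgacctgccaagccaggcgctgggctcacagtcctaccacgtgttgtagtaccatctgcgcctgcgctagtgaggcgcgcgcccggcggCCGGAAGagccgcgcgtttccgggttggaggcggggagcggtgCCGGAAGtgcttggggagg
Taf5: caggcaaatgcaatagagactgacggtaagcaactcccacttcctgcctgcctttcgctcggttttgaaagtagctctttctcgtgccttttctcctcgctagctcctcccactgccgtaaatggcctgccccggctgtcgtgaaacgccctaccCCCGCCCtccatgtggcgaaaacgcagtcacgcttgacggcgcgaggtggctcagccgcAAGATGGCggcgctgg
Gtf2b: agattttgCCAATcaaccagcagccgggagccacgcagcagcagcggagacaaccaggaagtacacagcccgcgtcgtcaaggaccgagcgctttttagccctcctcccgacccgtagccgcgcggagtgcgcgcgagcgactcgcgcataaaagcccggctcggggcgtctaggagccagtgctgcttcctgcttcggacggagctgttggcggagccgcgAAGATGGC
Taf3: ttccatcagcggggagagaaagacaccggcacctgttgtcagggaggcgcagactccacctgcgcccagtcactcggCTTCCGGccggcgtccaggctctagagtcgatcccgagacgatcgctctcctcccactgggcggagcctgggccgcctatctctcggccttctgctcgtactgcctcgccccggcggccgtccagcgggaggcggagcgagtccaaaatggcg

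The Polr2a window held GC boxes starting at -70 and -55 and a TATA box at -33, the usual distance of a TATA box from the start. Med13 held GC boxes at -62 and -27 in a stretch made almost wholly of G and C. ETS cores lay at -32 and 11 in Taf12, at -26 in Gtf2a1 and, on the opposite strand, at -123 in Taf3. Taf5 and Gtf2b each held a YY1 motif just inside the transcript, at 14 and 22. A match is a description of the letters and not of bound factors.

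Promoter peaks, defined as any base of a called peak within 1500 bp of an annotated TSS of the gene, were found at 19, 27, 13 and 70 of the 82 genes in old 1, old 2, young 1 and young 2. These are shares of 23.2%, 32.9%, 15.9% and 85.4%. Over all protein-coding genes the shares were 25.6, 24.5, 10.6 and 67.5%. In 3 libraries the transcription machinery genes thus lay above the genome, and in old 1, the deepest library, slightly below it.

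Gene length was taken into account by weighting the shares of all other protein-coding genes in 10 length bins by the lengths of the 82 genes. The resulting shares for genes of like length were 24.9%, 23.8%, 10.2% and 66.9%, and the 82 genes stood at 0.929, 1.39, 1.55 and 1.28 times these. The genes had a median length of 16.0 kb, close to the 17.4 kb over all genes, so length changed the comparison little. When every list was reduced to the length of the shortest, the ratios were 1.18, 1.33, 1.55 and 1.37, so the value below 1 in old 1 did not hold among its strongest peaks.

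**Figure D1:**
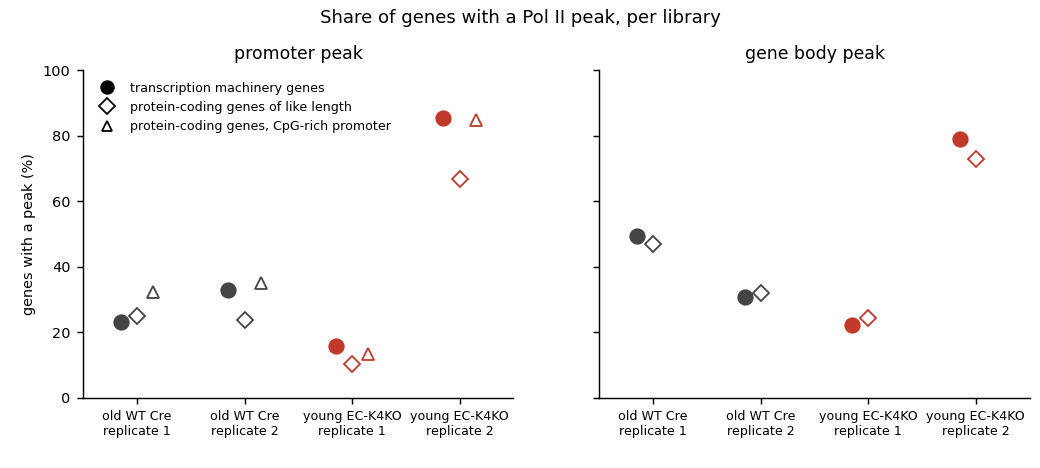
Share of genes with a Pol II peak at the promoter (left) and in the gene body (right), in percent, for each library. Filled circles are the 82 transcription machinery genes (81 with a gene body), diamonds are other protein-coding genes of like length, and triangles are all genes with a CpG-rich promoter; young 2 lies far above the other 3 libraries for every class.

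The group means of the promoter share were 28.0% ± 6.90 (SD, n = 2) in old WT Cre and 50.6% ± 49.2 (SD, n = 2) in young EC-K4KO. The difference of 22.6 percentage points was smaller than the spread between the young libraries (two-sided exact permutation test over 4 libraries, p = 1, where the smallest possible p is 0.3333). Without young 2 the difference was -12.2 percentage points, the opposite direction, and with peak lists cut to equal length it was 4.88 (p = 0.6667 by the same exact permutation test). As ratios to genes of like length the groups stood at 1.16 ± 0.323 and 1.41 ± 0.197 (SD, n = 2 each), a log2 difference of 0.31 that did not exceed the spread (exact permutation p = 0.6667) and lay between 0.022 (without old 1) and 0.60 (without old 2) when 1 library was left out, with 0.45 without young 2. The study's methods call the ChIP-seq replicates biological. Neither they nor the labels say whether each came from separate animals, so these p-values measure only the spread between samples.

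In the CpG content of their promoters these genes lay further from the genome than in length. RefSeq promoter windows of 300 bases were matched for 71 of the 82 genes, giving 86 windows, beside 20150 windows of all protein-coding genes. The median observed-to-expected CpG ratio was 0.848 in the 86 windows and 0.588 in all windows, and 76 of the 86 (88.4%) exceeded 0.6 against 49.1% of all. Genes with such a CpG-rich promoter had promoter peaks at 32.3%, 35.0%, 13.5% and 84.9% genome-wide in the 4 libraries. The 67 CpG-rich transcription machinery genes had them at 15, 24, 10 and 58, or 22.4%, 35.8%, 14.9% and 86.6%. Against all genes above 0.6, then, the shares of the 67 in 3 libraries were within 2 percentage points, and in old 1 the share was lower. CpG content was not matched within this class. The 4 genes with a CpG-poor promoter had peaks in 0, 1, 0 and 3 cases, beside 18.3, 13.6, 7.69 and 50.5% of all such genes. The 11 genes without a window are in neither class.

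Motif shares are given without a test, since CCAAT and TATAAA are short and windows of 1 gene overlap each other. The ETS core was present in 27 of the 86 windows (31.4%) against 11.9% of all windows, and among CpG-rich windows in 32.9% against 19.9%. The NRF1 motif GCATGCGC was in 11 windows (12.8% against 3.65%, and 13.2% against 6.49% among CpG-rich ones), and the YY1 motif in 8 (9.30% against 3.11%, and 9.21% against 5.02%). TATAAA was in 12 windows, near the share of all windows (14.0% against 12.1%) but above that of CpG-rich windows (15.8% against 5.34%). The CACCC box CCCACCC, a KLF-type motif, was in 12 windows, a lower share than in all windows (14.0% against 19.2%) and in CpG-rich ones (14.5% against 21.1%). The GC box was in 36, above the share of all windows (41.9% against 35.0%) and below that of CpG-rich windows (46.1% against 55.9%). CCAAT (33.7% against 37.8%, and 34.2% against 36.3%) and the CRE TGACGTCA (3.49% against 2.31%, and 3.95% against 3.73%) differed less. The 25 genes with an ETS core had promoter peaks in 4, 8, 3 and 21 cases in the 4 libraries, and the 46 without one in 11, 17, 7 and 40. The 12 genes with a CACCC box had them in 4, 5, 1 and 10 cases, and the 59 without one in 11, 20, 9 and 51. Over all genes 25.6, 24.5, 10.6 and 67.5% had a promoter peak. Shares over all genes with each motif are not given, so these splits are a description only.

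**Figure D2:**
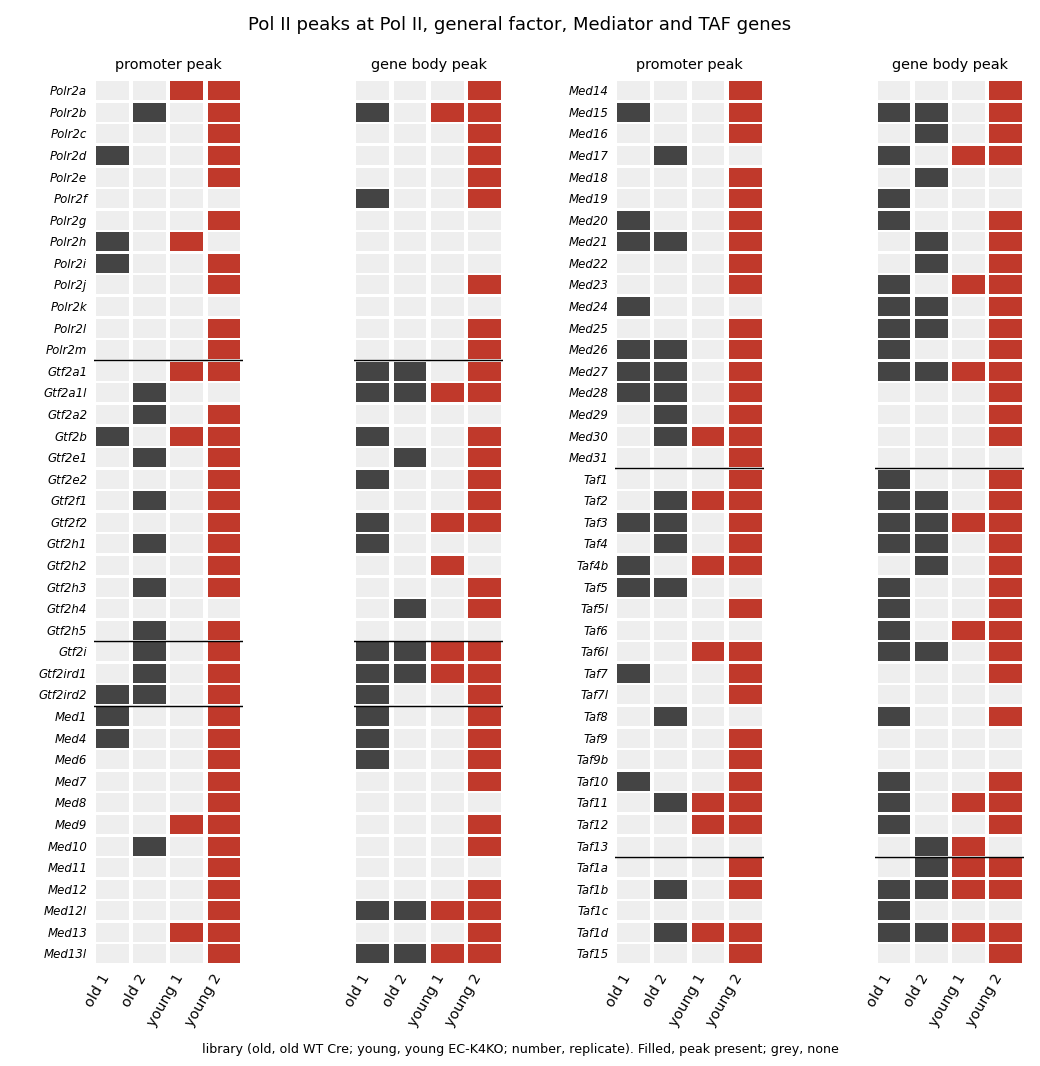
Presence of a Pol II peak at the promoter and in the gene body of each of the 82 genes, ordered by role with lines between roles, in the 2 old WT Cre libraries (dark) and 2 young EC-K4KO libraries (red); grey is no peak. No row is filled in all 4 promoter columns, while 9 genes are filled in all 4 gene body columns.

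Reproducible promoter peaks were few. Both old WT Cre libraries had one at 7 of the 82 genes, when 10.1% of all genes did, and both young EC-K4KO libraries at 12, when 9.11% did. No gene had one in all 4 libraries, against 2.22% of all genes, and 12 had one in at least 3, against 13.1%. Young EC-K4KO replicate 2 alone carried the promoter peak of 31 genes (30.6% over all genes), and 45 genes had a peak in any of the other 3 libraries (44.0%). Within the old pair the shared genes were 36.8% and 25.9% of each library's genes, beside 39.5% and 41.3% over all genes. Within the young pair they were 92.3% and 17.1%, beside 85.8% and 13.5%.

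A gene counted in both libraries of a group did not always have the same peak. Promoter peaks of the old pair overlapped each other by at least 1 bp at 4 of the 7 genes, Gtf2ird2, Med26, Med28 and Taf5. In the young pair they overlapped at 9 of the 12, namely Gtf2a1, Gtf2b, Med13, Med9, Polr2a, Taf11, Taf12, Taf1d and Taf2. The shares over all genes were 60.5% in the old pair and 66.6% in the young pair.

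Of the 82 genes, 6 had a promoter peak in both young libraries and in neither old one, where 3.09% of all genes did. They were Gtf2a1, Med13, Med9, Polr2a, Taf12 and Taf6l. Taf5 was the 1 gene with the reverse pattern, against 0.784% of all genes. Young 2 had a peak at 70 of the 82 genes, and without it 7 genes had a peak in both old libraries and not in young 1, where 7.79% of all genes did, and 6 had one in young 1 and in neither old library, where 4.02% did. Without old 1 the counts were 4 for the old side (2.53% of all genes) and 8 for the young (4.93%). Without old 2 they were 2 (3.79%) and 10 (5.05%), and without young 1 they were 1 (0.889%) and 37 (33.7%). The young pattern depended on the threshold. It held for 2 genes at q of at most 1e-05 (Taf1d and Taf4b, neither of them in the first set), when 1.20% of all genes had it, and for 4 with lists of equal length (Gtf2a1, Med13, Med9 and Taf12), when 2.00% had it.

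The counts by role that follow are to be read beside the 25.6, 24.5, 10.6 and 67.5% of all genes with a promoter peak in the 4 libraries, and no role was tested against them. Of the 13 Pol II subunit genes, 3, 1, 2 and 10 had one, or 23.1%, 7.69%, 15.4% and 76.9%. Polr2a had none in old WT Cre and low peaks in young EC-K4KO, of 3.65-fold enrichment over the local background (summit 26 bp downstream of the TSS, 14 fragments) in young 1 and 3.67-fold (summit at -90 bp, 14 fragments) in young 2. Both ranked low among promoter peaks of their own library, at the 20.4 and 6.91 percentiles, and neither reached q of 1e-05. The nearest summit in old 1 was 2426 bp away, so a window of 3000 bp moves Polr2a out of the young pattern.

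Polr2b, the second largest subunit, which completes the active site, had a peak in old 2 (3.73-fold, 935 bp upstream, nearest to the TSS of the neighbor Noa1) and in young 2 (5.79-fold, 285 bp downstream). Polr2h, a subunit shared with polymerases I and III, was found in old 1 at 4.23-fold and young 1 at 4.03-fold and in neither second replicate. Polr2d and Polr2i were found in old 1 and young 2. Polr2c, Polr2e, Polr2g, Polr2j, Polr2l and Polr2m were found in young 2 alone. The shared subunits Polr2f and Polr2k had no promoter peak in any library. No Pol II subunit gene was called in both replicates of old WT Cre, beside 10.1% of all genes. Polr2a alone was called in both of young EC-K4KO, beside 9.11% of all genes.

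General transcription factor genes had promoter peaks at 1, 7, 2 and 11 of 13, or 7.69%, 53.8%, 15.4% and 84.6%. Gtf2b had a peak in old 1 (4.51-fold) and in young 1 (7.33-fold) and young 2 (8.25-fold), and none in old 2, whose nearest summit was 77361 bp away. Its summits lay 312, 306 and 287 bp downstream of the nearest GENCODE start, at nearly the same place in each. The RefSeq start used for the printed sequence lies 202 bp downstream of the GENCODE 5′ end. In young 1 this peak ranked at the 99.1 percentile of promoter peaks.

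Gtf2a1, the TFIIA large subunit, had peaks of 4.70-fold at 34 bp downstream in young 1 and of 6.90-fold at 1660 bp downstream in young 2, where a further peak lay 158 bp from the TSS. The nearest summits in old WT Cre were 15358 and 1752 bp away, so a window of 3000 bp moves Gtf2a1 out of the young pattern. TFIIH, the helicase and kinase complex that opens the promoter, had 0, 3, 0 and 4 of 5 genes called. Its p62 subunit gene Gtf2h1 was called in old 2 (4.10-fold) and young 2 (3.99-fold), and Gtf2h4 in no library. The 4 TFIIE and TFIIF genes had peaks in 0, 2, 0 and 4 cases. The genes of these complexes called in old 2 were Gtf2h1, Gtf2h3, Gtf2h5, Gtf2e1 and Gtf2f1. Each has a neighbor's TSS in its promoter window, so its peak cannot be assigned to either gene.

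TFII-I family genes bind initiator and E-box elements and act as signal-responsive regulators rather than as parts of the basal machinery. All 3 had promoter peaks in old 2 and in young 2, and none in young 1. Gtf2ird2 was also called in old 1, with enrichments of 3.79-, 5.69- and 7.1-fold and summits at -3, 3 and 191 bp, so that its old peaks coincided almost to the base.

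Mediator genes had promoter peaks at 9, 8, 3 and 28 of 30, or 30%, 26.7%, 10% and 93.3%, near the shares of all genes in the first 3 libraries. Each of the 30 was called in at least 1 library, as were all but 25.4% of all genes. The 4 kinase module genes, Med12, Med12l, Med13 and Med13l, had no promoter peak in either old WT Cre library and all 4 had one in young 2. Over all genes 25.6, 24.5 and 67.5% had one in these 3 libraries. Med13 alone had one in young 1 as well. That peak was 3.82-fold with its summit 585 bp upstream, at the 30.3 percentile, whereas in young 2 the peak was 18.0-fold with 53 fragments, the highest of any of the 82 genes and at the 99.9 percentile of its library.

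Each subunit was assigned to the module in which it is usually drawn. The head module had 1, 1, 0 and 6 of 7 genes called. The middle module had 4, 3, 1 and 9 of 9 genes called and the tail 4, 4, 1 and 8 of 9. Med1, the subunit contacted by nuclear receptors, was called in old 1 (3.62-fold, summit at -36 bp) and young 2 (6.67-fold, 1131 bp downstream). Med14, the backbone that joins the modules, was called in young 2 alone (8.0-fold), as was Med12 (4.71-fold). Med17, a head subunit, was called in old 2 alone (6.34-fold, at the 85.5 percentile) and Med24 in old 1 alone (5.14-fold).

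Med21, Med26, Med27 and Med28 were the Mediator genes called in both old WT Cre libraries, beside 10.1% of all genes. All were also called in young 2. Med28 had summits 147 and 79 bp downstream in the old pair. Med27 had its old peaks 1102 bp upstream and 273 bp downstream, at different positions. Med30 was called in old 2 and in both young libraries, at 3.73-, 4.14- and 5.22-fold, and Med9, a small middle subunit, in both young libraries at 3.44- and 8.12-fold.

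TAF genes of TFIID, its paralogs and SAGA had promoter peaks at 5, 6, 5 and 14 of 18, or 27.8%, 33.3%, 27.8% and 77.8%. Taf5 had a peak in old 1 (4.88-fold, 692 bp downstream, 25 fragments) and old 2 (4.04-fold, 432 bp downstream, 10 fragments). It was among the 12 genes without a promoter peak in young 2, the library in which most were called. Its peaks reached the 83.0 and 13.2 percentiles, so only the first was high for its library, and a window of 500 bp removed it from the old pattern.

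Taf12 had young EC-K4KO peaks of 4.36- and 8.07-fold with summits at -25 and -21 bp. Those summits lay between the starts of the ETS cores in the printed sequence. Taf6l, a SAGA subunit, had peaks of 3.23-fold at 1293 bp and 5.95-fold at 765 bp downstream that did not overlap. Taf2, which contacts the initiator element, was called in 3 libraries with summits 171, 154 and 156 bp downstream and enrichments of 5.97-, 3.82- and 8.27-fold. It was missed in old 1, the library with the most fragments.

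Taf3 was called in 3 libraries at 4.35-, 5.97- and 9.35-fold, but at different starts. The peak of old 1 (chr2:9918045-9918232) lay at an annotated start near the 3′ end of the gene, and those of old 2 (chr2:10048220-10048704) and young 2 (chr2:10048345-10048773) at its 5′ end. Taf1, the largest TFIID subunit, was called in young 2 alone, at 3.11-fold and 7 fragments, the smallest pileup of any peak in that list. Taf4 was called in old 2 (6.71-fold) and young 2 (8.64-fold) with summits 1357 bp downstream and 347 bp upstream of the TSS. Taf6 and Taf13 had no promoter peak in any library.

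Among the Pol I TAFs, Taf1d was called in old 2 and both young libraries (4.85-, 5.10- and 9.43-fold), with every summit nearer to a start of its neighbor 4931406C07Rik than to its own. Taf1c was called in no library. In all, 6 genes (Gtf2h4, Polr2f, Polr2k, Taf13, Taf1c and Taf6) lacked a promoter peak throughout, when 25.4% of all genes did. With a window of 3000 bp 3 genes lacked one.

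**Figure D3:**
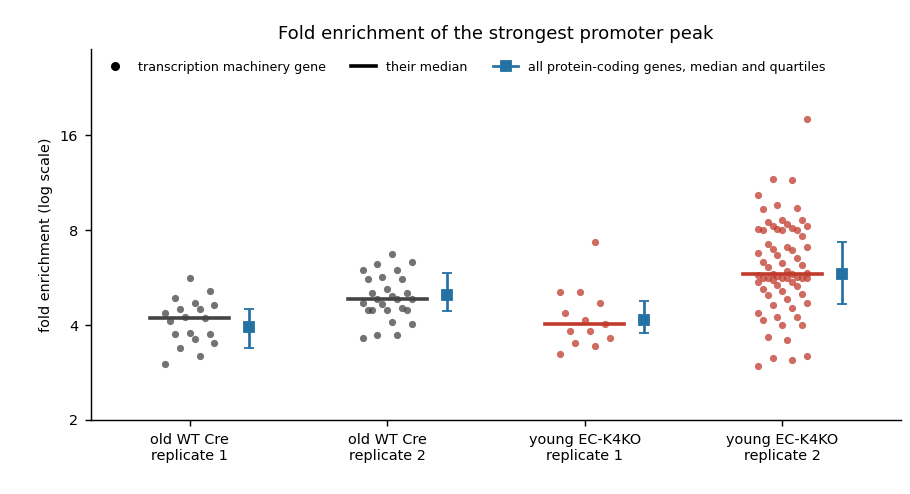
Fold enrichment of the strongest promoter peak of each gene on a log scale, by library. Points are transcription machinery genes, bars their medians, and squares with whiskers the median and quartiles of all protein-coding genes with a promoter peak; the medians of the genes lie within the genome's quartiles in each library, and Med13 is the single point at 18.0 in young 2.

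Where a promoter peak was present, its height was close to that at other genes. The median fold enrichment of the strongest promoter peak per gene was 4.22, 4.85, 4.03 and 5.81 in the 4 libraries, beside 3.94, 5.0, 4.16 and 5.82 over all genes with such a peak. The median percentiles were 63.5, 43.9, 38.9 and 49.9. Among the 12 genes called in at least 3 libraries, the mean percentile was highest for Gtf2b (85.6), Taf3 (80.2), Taf1d (72.6), Taf2 (64.6) and Gtf2ird2 (63.8), and lowest for Med30 (30.1). Enrichment is relative to the local background of each library and was not normalized between libraries, so heights are compared here only within a library.

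Summits lay mostly downstream of the TSS. Their median position was 160, 170, 124 and 44.5 bp downstream in the 4 libraries, beside 137, 131, 52.5 and 98.0 bp over all genes. Summits within 500 bp of the TSS made up 15 of 19, 20 of 27, 8 of 13 and 56 of 70 peaks. These are 78.9%, 74.1%, 61.5% and 80.0%, beside 59.5%, 72.2%, 61.6% and 67.5% over all genes, so the share near the start was larger than over all genes in old 1 and young 2 and close to it in the other libraries.

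**Figure D4:**
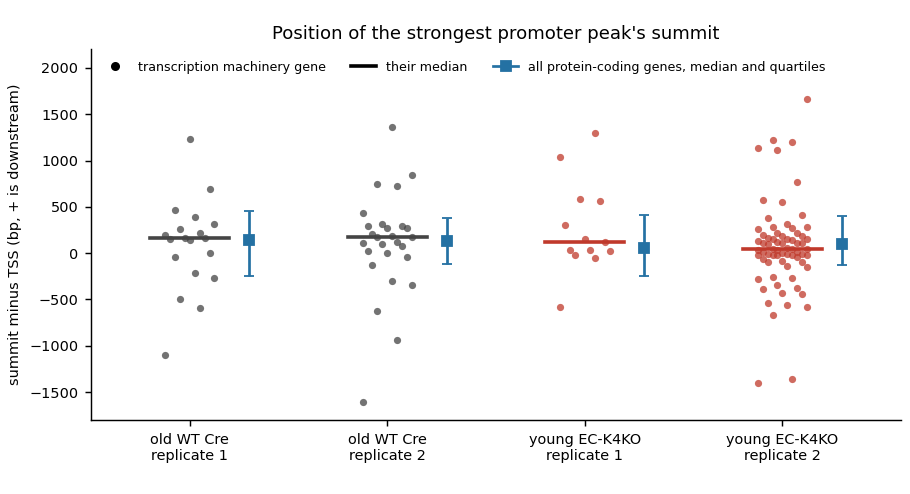
Distance in bp from the nearest TSS to the summit of the strongest promoter peak, positive downstream, by library. Points are transcription machinery genes, bars their medians (160, 170, 124 and 44.5 bp), and squares with whiskers the median and quartiles of all protein-coding genes with a promoter peak; most points lie within 500 bp of the TSS.

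Many of these promoters are shared with a neighbor, and a peak there cannot be assigned to either gene. A TSS of another protein-coding gene lay in the promoter window of 18 of the 82 genes (22.0%), against 13.0% of all genes. Polr2b with Noa1, Gtf2h1 with Hps5, Gtf2h3 with Eif2b1, Med22 with the ribosomal protein gene Rpl7a, and Med29 with the elongation factor gene Paf1 are examples. Of 29 strongest promoter peaks at the 18 genes, 10 had a summit nearest to the gene's own TSS. The 64 genes with a promoter of their own had peaks in 17, 18, 11 and 54 cases, or 26.6%, 28.1%, 17.2% and 84.4%, beside 24.4%, 22.6%, 9.85% and 65.1% of all genes with their own promoter. These shares lay above those of all such genes in each library, by least in old 1. The 18 genes with a shared promoter had peaks in 2, 9, 2 and 16 cases, or 11.1%, 50%, 11.1% and 88.9%, beside 34.0%, 37.2%, 15.8% and 83.7% of all genes with a shared promoter, so they lay below in old 1 and young 1 and above in old 2 and young 2.

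Gene body peaks, in the gene span outside 1500 bp of every own TSS, were found at 40, 25, 18 and 64 of the 81 genes that have such a span. The shares were 49.4%, 30.9%, 22.2% and 79.0%, beside 50.3, 35.4, 27.9 and 74.4% of all genes and 47.0%, 32.1%, 24.5% and 72.8% of genes of like length. Ratios to genes of like length were 1.05, 0.961, 0.909 and 1.09, so in the gene body these genes stood near other genes in each library. Group means of the share were 40.1% ± 13.1 and 50.6% ± 40.2 (SD, n = 2 each), a difference of 10.5 percentage points within the spread (exact permutation p = 1) that turned to -17.9 without young 2 and to -5.56 with lists of equal length and all 4 libraries (exact permutation p = 0.3333). Ratios averaged 1.01 ± 0.0639 and 0.997 ± 0.125 (SD, n = 2 each), a log2 difference of -0.02 (exact permutation p = 1), which ranged from -0.15 (without young 2) to 0.11 (without young 1) when 1 library was left out.

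**Figure D5:**
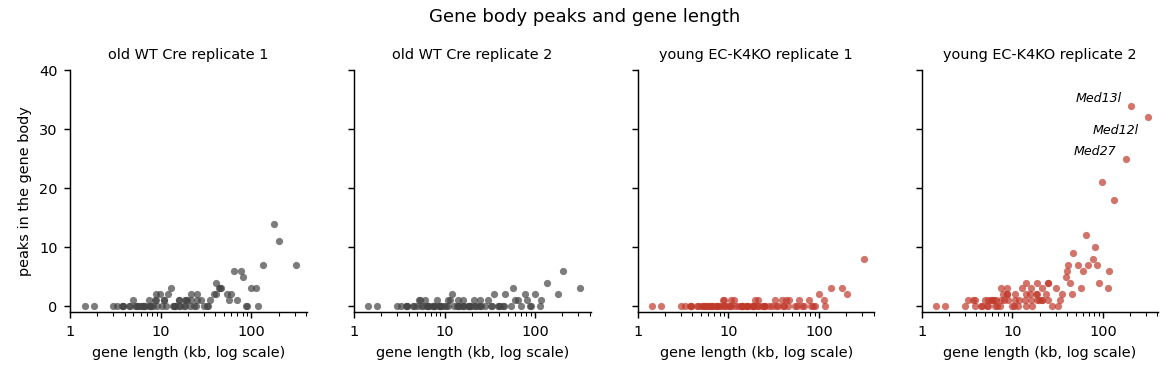
Number of peaks in the gene body against gene length in kb on a log scale, for the 82 transcription machinery genes in each library (Polr2i, which has no gene body, is plotted at 0). The longest genes carry the most peaks in each panel; Med13l, Med12l and Med27 carry 34, 32 and 25 peaks in young 2.

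Gene body peaks followed gene length within the set. Among the shortest 28 genes (1.44 to 9.05 kb, 27 of them with a gene body) 5, 4, 2 and 17 had one, or 18.5%, 14.8%, 7.41% and 63.0%, beside 13.5%, 7.46%, 4.49% and 37.2% of all genes in that range of length. Among the longest 27 (27.7 to 313 kb) 21, 14, 12 and 25 had one, or 77.8%, 51.9%, 44.4% and 92.6%, beside 82.3%, 62.4%, 51.8% and 97.5%. In all 4 libraries 9 genes had one, against 17.0% of all genes: Gtf2a1l, Gtf2i, Gtf2ird1, Med12l, Med13l, Med27, Taf1b, Taf1d and Taf3. Of these, 8 are among the longest 27 and Taf1d, of 10.8 kb, is the shortest. In no library 11 genes had one, against 20.9%.

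Med13l, of 205 kb, held 11, 6, 2 and 34 gene body peaks in the 4 libraries, Med12l, of 313 kb, held 7, 3, 8 and 32, and Med27, of 178 kb, held 14, 2, 3 and 25. Polr2a, of 24.6 kb, held 0, 0, 0 and 4. Per 100 kb of gene body the set carried 4.22, 1.61, 1.16 and 11.7 peaks, beside 3.39, 1.56, 1.25 and 9.90 over all genes. The Pol II subunit genes, most of them short, had gene body peaks at 2, 0, 1 and 9 of the 12 that have a gene body, beside 50.3, 35.4, 27.9 and 74.4% of all genes. Within 3000 bp past the gene end, where polymerase terminates, 13, 3, 3 and 25 of the 82 genes had a peak (15.9%, 3.66%, 3.66% and 30.5%), beside 11.3, 5.96, 3.84 and 31.3% of all genes.

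Other genes of the same pathway were examined beside these: 45 genes for TBP and its relatives, the TFIIH and Mediator kinases, P-TEFb, the pausing factors DSIF and NELF, the PAF complex, FACT, the super elongation complex and factors of Pol II assembly and termination. Their promoters carried peaks at 15, 19, 8 and 37 in the 4 libraries, or 33.3%, 42.2%, 17.8% and 82.2%, beside 25.6, 24.5, 10.6 and 67.5% of all genes. Their gene bodies carried them at 30, 21, 14 and 42, or 66.7%, 46.7%, 31.1% and 93.3%, beside 50.3, 35.4, 27.9 and 74.4%. In at least 3 libraries 11 of the 45 (24.4%) had a promoter peak, beside 13.1% of all genes. The order of the libraries was the same as for the 82 genes, with young 2 highest and young 1 lowest.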

How the data were processed

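Pol II ChIP-seq was performed on chromatin of flow-sorted brain ECs, digested with micrococcal nuclease. According to the methods of the study, reads were trimmed with TrimGalore, aligned to mm10 with Bowtie2 and stripped of duplicates with Picard and SAMtools. The file headers name MACS 2.2.7.1, run per library on paired fragments, with no control and a q cutoff of 0.01. The authors deposited peak lists that give for each peak a pileup (a coverage signal in fragments), a fold enrichment (a ratio over local background) and significance (p-value and q-value, as −log10). None was normalized between libraries, and 0 columns of per-sample values were left aside. Narrow peak and summit files repeat the same peaks and were used as a check only.

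Genes and TSSs came from the GENCODE M21 basic annotation of GRCm38, the assembly of mm10, and promoter sequences from RefSeq (GRCm38.p6), of which 86 of 86 equaled the genome. Peaks were counted with pandas 2.3.3, numpy 2.4.6 and scipy 1.17.1 under Python 3.11.15. Presence of peaks gives no count per gene, so groups were compared by an exact permutation of the 4 libraries, for which the smallest p is 0.3333. The code was tested on simulated data and found 400 of 400 planted promoter peaks and 200 of 200 gene body peaks. Members, roles, lists and motifs were chosen with earlier results of these data known, and the sequences shown were chosen after their values were seen. Genes were named where a promoter peak was in all 4 libraries, in both libraries of 1 group alone or in none, where the mean percentile of enrichment was among the top 5, or by role (the catalytic subunits and 9 further genes). Other genes were named after their values were seen, to account for the members of each role. Alternatives changed the q or enrichment threshold, list length, promoter window, TSS set, gene body, length bins, members and libraries. Bins of promoter window length and the comparison with CpG-rich promoters were added after seeing the data.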

Additional observations from a re-analysis of the deposited data

How the results depend on the processing

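No test here can pass a threshold of 0.05, so directions and counts are what can change. The log2 difference in the gene body ratio changed sign, to 0.042 at q of at most 1e-05, 0.11 with the whole gene span and 0.0037 outside 3000 bp of a TSS, and ranged from -0.15 to 0.11 when 1 library was left out. With lists of equal length the difference in gene body share turned to -5.56 percentage points (exact permutation p = 0.3333), and that in promoter share was 4.88 (p = 0.6667). When 1 library was left out, it ranged from -17.9 to 38.9 points and the difference in promoter share from -12.2 to 57.3, both negative only without young EC-K4KO replicate 2. The log2 difference in the promoter ratio stayed positive in every setting tried, from 0.048 at an enrichment of at least 4 to 0.37 with a 500 bp window, and from 0.022 to 0.60 when 1 library was left out. The mean promoter ratio in young EC-K4KO was 1.64 with a 500 bp window and its gene body ratio 1.14 with the whole gene span. Genes with promoter peaks in both old libraries numbered 3 at the stricter q, 4 at an enrichment of at least 4, 4 with equal lists and 12 with a 3000 bp window, and in both young libraries 3 at the stricter q and 6 at the enrichment of 4. With the 3000 bp window 1 gene (Taf11) had peaks in all 4 libraries. For these counts no share over all genes is given at the changed setting, so they describe the setting and not these genes. Genes called in the old pair alone numbered 0 at the stricter q (0.438% of all genes) and with a 500 bp window (0.656%). They numbered 2 with equal lists (1.79%) or a 3000 bp window (0.711%). In the young pair alone 2 were called at the stricter q (1.20%). Leaving out 1 library gave 7 to 27 genes for the old pair (27 without old WT Cre replicate 1, 19 without replicate 2), 12 to 70 for the young pair (70 without replicate 1), 0 to 6 for all libraries, 1 to 7 for the old pair alone (7 without young EC-K4KO replicate 2, 4 without old WT Cre replicate 1) and 6 to 37 for the young pair alone (37 without young EC-K4KO replicate 1), since a pair on either side then becomes 1 library. The counts of 27, 19 and 70 are those of single libraries, old 2, old 1 and young 2. Of all genes 24.5, 25.6 and 67.5% had a promoter peak there. The remaining 120 values of comparisons kept their direction, or stayed within 1 SD or 1.5 times of the count. Some of these could not change. Leaving out a library of 1 group leaves the other group's mean ratio and pair count as they were, and the replicate block repeats the group differences. The 120 therefore does not measure stability. Same-numbered libraries share only a number. With the replicate block the differences, 22.6 and 10.5 points, equal those above by construction and are no check of them (exact sign-flip p = 1 for both). No block could be judged from 2 pairs that moved in opposite directions, -7.32 and 52.4 points for the promoter share. The causes were not tested. Called peaks had at least 13, 8, 9 and 7 fragments at their summits in the 4 libraries.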
